A study of Mus musculus with 4 samples.

Results

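Chemokines are small secreted proteins that guide leukocytes, and their receptors are G protein-coupled proteins on the cells that are guided. The genes described here are 48 listed chemokine and chemokine receptor genes of the mouse, 33 ligands and 15 receptors, in endometriotic lesions, which are tissue like the uterine lining that grows elsewhere in the body. A gene was followed through its probe sets annotated to exactly 1 gene symbol, and the brightest of these stood for the gene. This left 47 of the 48 genes, out of 18193 genes on the array. The probe set of Ccl19 is annotated to 10 symbols and is described apart. Of the 47, 40 genes (30 ligands and 10 receptors) had a mean intensity of at least 34.7, the 40th percentile of all probe sets, and were among the 12847 genes tested. Ccl25, Ppbp, Ccr3, Ccr4, Ccr8, Ccr10 and Cxcr5 were dimmer and are given as values only.

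Lesions of mice fed a high-fat diet, 2 arrays, were compared with lesions of mice fed a casein diet, the control, also 2 arrays. All mice carried endometriotic lesions, and the series title calls the mice an immunocompetent model. Strain, age, time on the diet and how many animals each array stands for are not stated in the labels, so the p-values reflect the spread of these arrays alone, which may be technical. Precision is limited by having 2 arrays for each diet.

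Chemokines are named for the spacing of cysteines near the start of the protein, which gives the CC, CXC, CX3C and XC families. Most ligands of inflammation are induced by NF-kB or by interferons, and a few, such as Cxcl12, are made steadily by stroma. In endometriosis, chemokines are known for bringing monocytes, neutrophils and T cells to lesions. The ligands and their main receptors were paired by textbook knowledge, for example Ccl2 with Ccr2, Cxcl9 to Cxcl11 with Cxcr3, and Cxcl12 with Cxcr4.

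The tissue label was compared with marker genes. The uterine genes Hoxa10, Esr1 and Pgr were above the filter, as were all 10 endometrial stroma and all 10 endometrial epithelium markers, with Hoxa10 at 1886 and 1521 on the high-fat diet and 647 and 1547 on the casein diet. All 10 epithelium markers were below the casein diet (median log2 difference -0.73), 5 of them without overlap, against 19.5% of all tested genes. Casein diet replicate 1 was the highest array for 7 of the 10. The part of epithelium in the chemokine values was not tested. The summed intensity of 8 gastric mucosa markers was 337 and 351 on the high-fat diet and 66760.0 and 9463 on the casein diet. These markers were thus high in both casein diet arrays, most of all in replicate 1, and that tissue cannot be told apart from diet. The summed intensity of 7 skeletal muscle markers was 23993 and 731 on the high-fat diet, against 595 and 851 on the casein diet. Across the 12847 tested genes, which are not independent replicates, casein diet replicate 1 correlated at 0.902 and 0.920 with high-fat diet replicates 1 and 2, and at 0.950 with casein diet replicate 2. Casein diet replicate 2 correlated at 0.956 and 0.972 with high-fat diet replicates 1 and 2. Bulk RNA cannot tell fewer cells of a type apart from less RNA per cell.

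The promoters of 5 genes are shown first because these genes followed 2 patterns across the arrays that recur among the results. Cxcl1, Cxcl2, Cxcl3 and Ccl20 were higher in high-fat diet replicate 1 and casein diet replicate 2 than in the other arrays. Cxcl10 was highest in casein diet replicate 1. Each window runs from 250 bases before to 50 bases after the gene start, 5′ to 3′ on the gene's strand, from RefSeq (GRCm38.p6). Capitals mark matches on either strand to the NF-kB consensus (the kB motif) or to the interferon-stimulated response element, which is GAAA and GAAA with any 2 bases between them. The windows lie at chr5:90890995-90891294 (Cxcl1, plus strand), chr5:90903649-90903948 (Cxcl2, plus strand), chr5:90785851-90786150 (Cxcl3, plus strand), chr1:83116516-83116815 (Ccl20, plus strand) and chr5:92348840-92349139 (Cxcl10, minus strand).
Cxcl1: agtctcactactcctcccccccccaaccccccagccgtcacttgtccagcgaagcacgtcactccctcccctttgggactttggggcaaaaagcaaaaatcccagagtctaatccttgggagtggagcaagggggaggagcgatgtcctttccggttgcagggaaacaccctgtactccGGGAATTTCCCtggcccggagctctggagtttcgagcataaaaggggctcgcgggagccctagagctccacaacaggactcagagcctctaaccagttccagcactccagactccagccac
Cxcl2: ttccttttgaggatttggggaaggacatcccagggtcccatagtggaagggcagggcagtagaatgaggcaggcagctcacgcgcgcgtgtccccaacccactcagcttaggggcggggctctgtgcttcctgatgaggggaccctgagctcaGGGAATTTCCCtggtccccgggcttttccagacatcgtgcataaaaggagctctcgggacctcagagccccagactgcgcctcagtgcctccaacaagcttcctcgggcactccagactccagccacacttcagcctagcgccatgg
Cxcl3: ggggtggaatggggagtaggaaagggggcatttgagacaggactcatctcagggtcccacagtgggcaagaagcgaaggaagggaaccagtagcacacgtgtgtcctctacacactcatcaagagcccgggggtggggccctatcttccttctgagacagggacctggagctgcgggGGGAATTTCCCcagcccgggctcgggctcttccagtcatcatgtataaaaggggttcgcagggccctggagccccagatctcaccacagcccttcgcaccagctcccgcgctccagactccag
Ccl20: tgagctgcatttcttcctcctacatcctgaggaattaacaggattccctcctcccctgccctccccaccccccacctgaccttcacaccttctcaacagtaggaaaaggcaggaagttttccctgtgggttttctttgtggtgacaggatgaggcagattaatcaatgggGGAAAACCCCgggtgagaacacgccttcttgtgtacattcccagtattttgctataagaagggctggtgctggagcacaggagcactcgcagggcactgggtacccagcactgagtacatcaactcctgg
Cxcl10: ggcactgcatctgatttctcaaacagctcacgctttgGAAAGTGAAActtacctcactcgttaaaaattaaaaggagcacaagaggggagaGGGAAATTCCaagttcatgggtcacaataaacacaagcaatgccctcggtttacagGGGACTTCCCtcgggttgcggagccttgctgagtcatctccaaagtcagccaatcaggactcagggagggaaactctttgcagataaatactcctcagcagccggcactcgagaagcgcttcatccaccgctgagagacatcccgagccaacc

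The neutrophil ligand genes Cxcl1, Cxcl2 and Cxcl3 shared the 11-base run GGGAATTTCCC, which begins 71, 97 and 73 bases before the start. It holds overlapping kB matches on both strands. Ccl20 had a kB match on the minus strand, read as GGAAAACCCC, that begins 80 bases before the start. Cxcl10 had kB matches that begin 159 and 103 bases before the start and the interferon element GAAAGTGAAA, which begins 213 bases before it. Promoters were on hand for 36 of the 48 genes. The kB motif was found in 8 of these (22.2%), against 4.51% of 32851 promoters of the same length. Besides the 5 printed genes these were Ccl9, Ccr3 and Ccr6. Ccl9 and Ccr6 did not share the high arrays of Cxcl1, Cxcl2 and Cxcl3. The interferon element was found in 3 (8.33%) against 3.44%, and TTCNNNGAA, the STAT motif, in 3 (8.33%) against 8.30%. The GATA motif AGATAA was found in 8 (22.2%) against 11.2%, and the TATA box TATAAA in 11 (30.6%) against 13.6%. Besides Cxcl10, the interferon element was in Ccl19 and Cxcl14. Cxcl9, which like Cxcl10 was highest in casein diet replicate 1, had neither that element nor the kB motif. All of these are matches of letters and not measured sites.

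Of the 40 chemokine and receptor genes, 0 passed limma's test once p-values were adjusted over all tested genes by the Benjamini-Hochberg method, where 0% of 12847 genes passed at 0.05 (adjusted p from 0.859 to 0.987 for the 40 genes, smallest over all genes 0.859). Without casein diet replicate 2, 24 genes passed, 0 of them chemokine or receptor genes. At an unadjusted p under 0.05 there were 7 of the 40, where 4.85% of all tested genes (623) lay. Higher on the high-fat diet were 2 of the 40, Pf4 and Cxcr4, where 2.2% of all tested genes were. Lower were 5 of the 40, Ccr7, Cxcl13, Ccl3, Ccl4 and Ccl17, where 2.65% were.

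Both arrays of a diet lay apart from both of the other for 18 of the 40 genes (45%), against 36.1% of all tested genes. Of these, 14 were lower on the high-fat diet, where 19.5% of all tested genes were, and 4 were higher, where 16.7% were. The mean was below the casein diet for 29 of the 40 genes, against 51.4% of all tested genes. The median log2 difference was -0.36 for the 30 ligands and -0.11 for the 10 receptors, and -0.01 over all tested genes. Casein diet replicate 1 was the highest array for 21 of the 40 genes, against 33.3% of all tested genes. Without that array, where casein diet replicate 2 is assumed to vary like the high-fat diet arrays, the median was -0.20 for ligands and -0.02 for receptors.

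**Figure D1:**
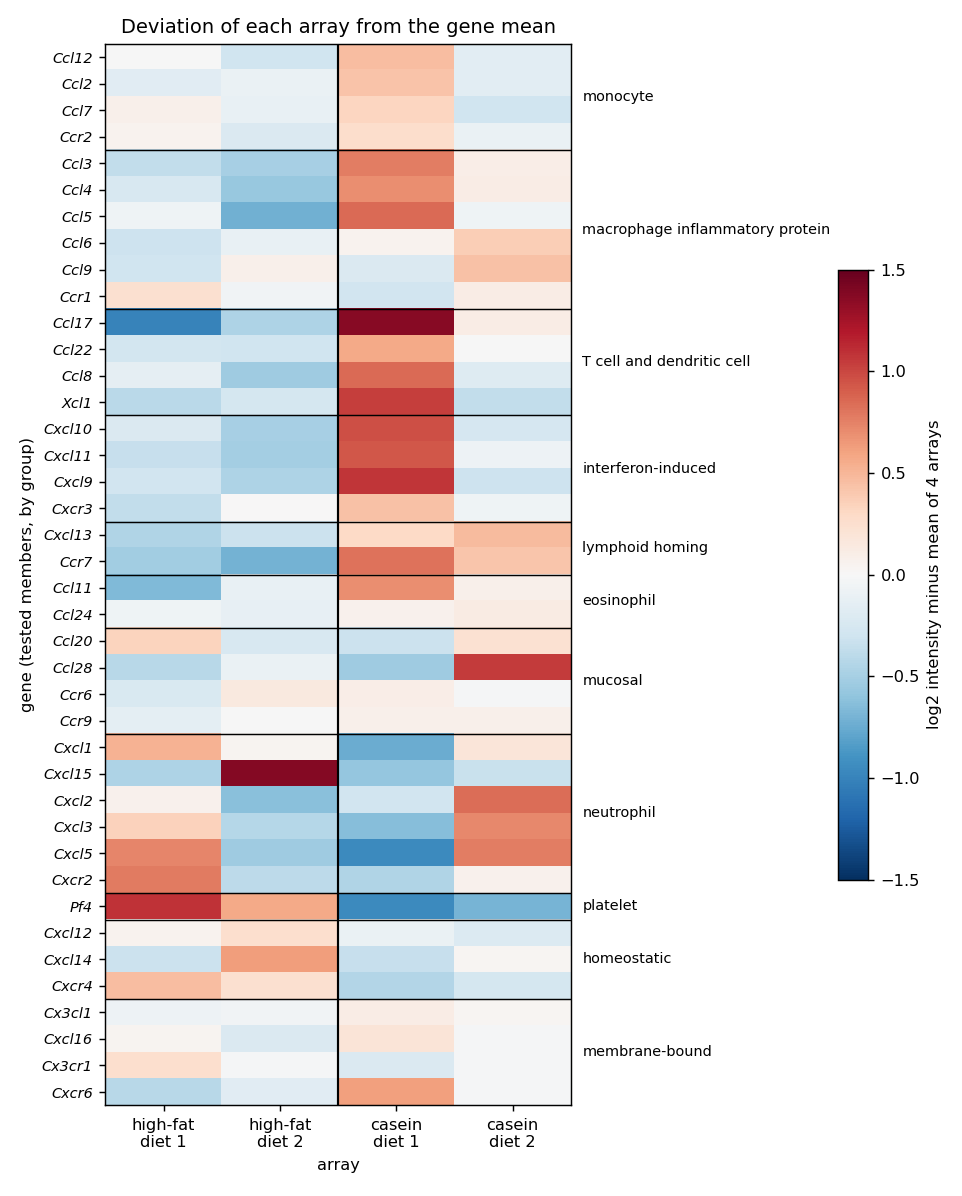
Log2 intensity of each array minus the mean of the 4 arrays for the 40 tested chemokine and receptor genes, with the high-fat diet arrays left of the casein diet arrays and genes grouped by role. The interferon-induced, T cell and monocyte groups are highest in casein diet replicate 1, and most neutrophil ligands are highest in high-fat diet replicate 1 or casein diet replicate 2.

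Pf4 had the largest difference toward the high-fat diet. It encodes platelet factor 4, a heparin-binding CXC chemokine stored in platelets and also made by some macrophages. Its intensities were 1198 and 839 on the high-fat diet and 291 and 347 on the casein diet. The diets did not overlap, and the log2 difference was 1.66 (SE 0.23, 95% interval 1.01 to 2.31, limma unadjusted p = 0.00246, adjusted p = 0.859), or 3.15-fold. It ranged from 1.40 to 1.91 when each array was left out in turn. Ppbp, the other platelet chemokine gene whose product gives rise to a Cxcr2 ligand, was under the filter, at 23.6 and 16.9 on the high-fat diet and 12.4 and 17.9 on the casein diet. Platelet markers had a summed intensity of 297 and 285 on the high-fat diet and 282 and 284 on the casein diet (7 of 9 listed genes on the array, 3 tested, 2 above and 1 below the casein diet). Among 11 tested macrophage and monocyte markers 9 were above the casein diet, with summed intensities of 18339 and 14048 on the high-fat diet and 15326 and 13716 on the casein diet. Their part in the difference of Pf4 was not tested.

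Cxcl12 and Cxcr4 formed the only ligand and receptor pair of 19 tested pairs in which both were higher without overlap. Of all tested genes taken singly, 16.7% were higher without overlap, and a share for pairs was not computed. Cxcl12 is made by stromal and endothelial cells, and Cxcr4, its receptor, retains and recruits leukocytes and progenitors. Cxcr4 had intensities of 241 and 206 on the high-fat diet and 128 and 145 on the casein diet. Its log2 difference was 0.71 (SE 0.14, 95% interval 0.32 to 1.10, limma unadjusted p = 0.00791), and 0.59 to 0.82 with each array left out. Cxcl12 was at 921 and 1054 on the high-fat diet and 828 and 765 on the casein diet, a smaller log2 difference of 0.31 (SE 0.12). A second, dimmer probe set of Cxcl12 gave 446 and 558 on the high-fat diet and 284 and 294 on the casein diet, a log2 difference of 0.79. The remaining probe set, under the filter, gave 0.05. All 7 tested endothelial markers were above the casein diet, with summed intensities of 1648 and 1799 on the high-fat diet and 942 and 1251 on the casein diet. Of 10 tested endometrial stroma markers, 7 were above the casein diet (median 0.32), with summed intensities of 26653 and 26495 on the high-fat diet and 23259 and 27345 on the casein diet. The part of these cells in the Cxcl12 and Cxcr4 values was not tested. Ackr3, the scavenging receptor for Cxcl12, was at 344 and 417 on the high-fat diet and 565 and 304 on the casein diet, and its diets overlapped. Cxcl14, an epithelial and stromal CXC ligand without a settled receptor, differed by 0.31 (SE 0.38), with 537 and 1035 on the high-fat diet and 526 and 683 on the casein diet.

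**Figure D2:**
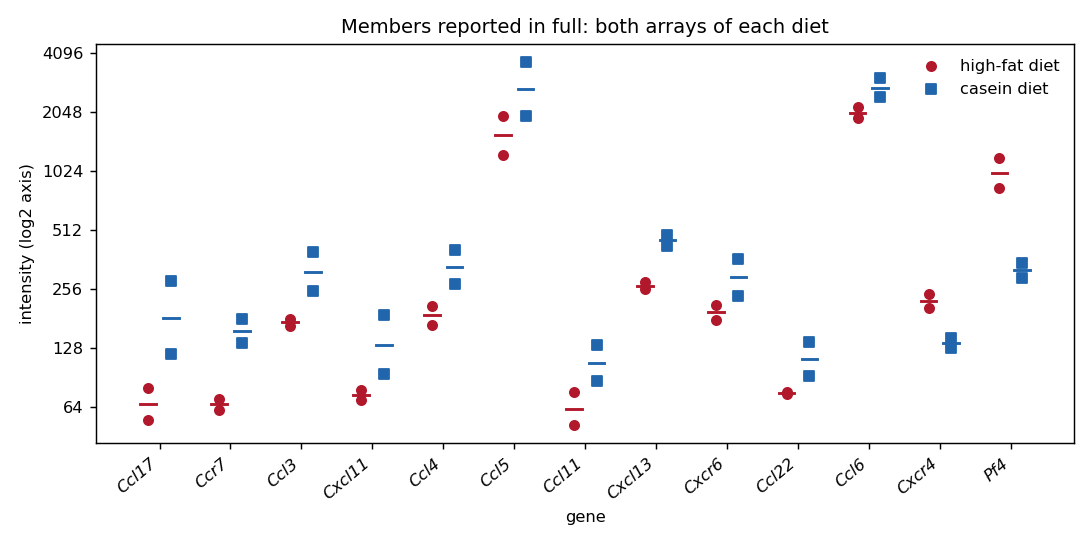
Intensity, on a log2 axis, of both arrays of each diet for the 13 genes reported in full, whose diets did not overlap and whose difference was at least 0.4 log2 or had an unadjusted p under 0.05. Points are arrays and bars are means of log2 values, and Pf4 and Cxcr4 alone lie higher on the high-fat diet.

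Ccr7 and Cxcl13 belong to the system that draws lymphocytes and dendritic cells into lymphoid tissue. Ccr7, the receptor that guides T cells and mature dendritic cells to lymph nodes, was at 70.6 and 62.0 on the high-fat diet and 179 and 135 on the casein diet. The diets were well apart, with a log2 difference of -1.24 (SE 0.19, 95% interval -1.77 to -0.71, limma unadjusted p = 0.00337, adjusted p = 0.859). It ranged from -1.44 to -1.03 when each array was left out. Cxcl13, the B cell attractant of follicles, was at 255 and 278 on the high-fat diet and 425 and 481 on the casein diet. Its arrays lay close together within each diet, and the log2 difference was -0.77 (SE 0.12, 95% interval -1.10 to -0.43, limma unadjusted p = 0.00377). The range with each array left out was -0.85 to -0.68, and a second probe set gave -0.68. Its receptor gene Cxcr5 was under the filter, at 22.4 and 32.9 on the high-fat diet and 40.8 and 31.7 on the casein diet.

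The Ccr7 ligand Ccl19 could be read only from a probe set shared with 9 other symbols, most of them unnamed gene models or copies. That probe set gave 76.6 and 156 on the high-fat diet and 129.7 and 98.9 on the casein diet, and the diets overlapped. Markers of dendritic cells had the same direction as Ccr7, with all 8 tested below the casein diet. Only 3 (Itgax, Cd209a and Clec10a) did so without overlap, against 19.5% of all tested genes. Their summed intensities were 4940.1 and 3835 on the high-fat diet and 7626 and 5362 on the casein diet. Most of each sum was H2-Ab1, at 3833 and 2746 on the high-fat diet and 5945 and 3644 on the casein diet, with overlap. Flt3 (-0.09, SE 0.10) and Zbtb46 (-0.03, SE 0.10) differed little and also overlapped. Of 14 tested T and NK cell markers, 13 were below the casein diet, with summed intensities of 1914 and 2101 on the high-fat diet and 4014 and 2226 on the casein diet. Of 4 tested B and plasma cell markers, 3 were above the casein diet. The B cell marker Ms4a1 was below it, at 101 and 169 on the high-fat diet and 188 and 174 on the casein diet (-0.47, SE 0.29), the direction of Cxcl13. The plasma cell gene Mzb1 was above it, at 632 and 765 on the high-fat diet and 198 and 265 on the casein diet, as was Jchain (0.50, SE 0.29), and the B cell marker Cd79b differed by 0.08 (SE 0.19). The part of these cells in the values of Ccr7 and Cxcl13 was not tested.

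The CC ligand genes Ccl3, Ccl4, Ccl5, Ccl6 and Ccl9 were grouped as acting on Ccr1 and related receptors. Of these, 4 of 5 did not overlap and were lower on the high-fat diet, as were 19.5% of all tested genes. Ccl4 was paired with no listed receptor. Ccl7, which was also paired with Ccr1, overlapped (-0.03) and is described with the monocyte ligands. Ccl3, made by activated macrophages and T cells, was at 181 and 165 on the high-fat diet and 396 and 248 on the casein diet. Its neighbour Ccl4 was at 211 and 168 on the high-fat diet and 404 and 270.2 on the casein diet. Both were highest in casein diet replicate 1 and still higher in casein diet replicate 2 than in either high-fat diet array. Their log2 differences were -0.86 (SE 0.27, limma unadjusted p = 0.0351) and -0.81 (SE 0.26, limma unadjusted p = 0.0383). Without casein diet replicate 1 they were -0.53 and -0.52.

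Ccl5, which T and NK cells secrete, was at 1948 and 1242 on the high-fat diet and 3677 and 1952 on the casein diet. High-fat diet replicate 1 and casein diet replicate 2 were thus almost level, and the log2 difference of -0.78 (SE 0.42) was -0.33 without the first casein diet array, -0.46 without high-fat diet replicate 2 and -1.24 without casein diet replicate 2. Ccl6, a myeloid chemokine gene described in rodents, was at 1896 and 2180.3 on the high-fat diet and 2436 and 3035 on the casein diet, a log2 difference of -0.42 (SE 0.16). It departed from Ccl3 and Ccl4 in being highest in casein diet replicate 2, and without that array its difference was -0.26. Ccl9, also a myeloid chemokine of rodents, overlapped between diets in its brightest probe set (-0.23, SE 0.29). A second, dimmer probe set of Ccl9 was lower on the high-fat diet without overlap, at 333 and 395 against 413 and 547 on the casein diet (-0.39). Their shared receptor gene Ccr1 went the other way in value, at 187 and 153 on the high-fat diet and 129.6 and 172 on the casein diet, with overlap (0.18, SE 0.20). Ccl6 and Ccl9 are close relatives, and how far their probe sets share signal was not tested.

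Ccl17, a dendritic cell product that attracts T cells through Ccr4, had the lowest log2 difference of the 40 genes. It was at 55.02 and 79.5 on the high-fat diet, against 282 and 119 on the casein diet. The log2 difference was -1.47 (SE 0.51, 95% interval -2.91 to -0.02, limma unadjusted p = 0.0479), or -0.84 once casein diet replicate 1 was left out and -2.09 once casein diet replicate 2 was. The related Ccr4 ligand Ccl22 was at 76.2 and 74.9 on the high-fat diet and 137 and 92.1 on the casein diet (-0.57, SE 0.23, with -0.29 once casein diet replicate 1 was left out and -0.86 once casein diet replicate 2 was). Ccl17 and Ccl22 therefore kept apart by diet, by an amount that depended on which casein diet array was left out. Ccr4 was under the filter, between 7.03 and 10.3 on all arrays. Clec10a, a marker gene of dendritic cells and macrophages, was at 229 and 239.8 on the high-fat diet and 578 and 349 on the casein diet, in the same order of diets as both ligands.

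Ccl8, which acts on Ccr8 in the mouse, was at 2829 and 2144 on the high-fat diet and 5597 and 2699 on the casein diet. Only casein diet replicate 1 stood clear, and the log2 difference of -0.66 (SE 0.42) was -0.13 without it and -1.18 without casein diet replicate 2. Ccr8 was under the filter, at 9.25 to 9.93. Xcl1, the lymphotactin made by activated T and NK cells, behaved alike, at 172 and 189 on the high-fat diet and 463 and 175 on the casein diet (-0.66, SE 0.52), with 0.04 if casein diet replicate 1 is left out and -1.36 if casein diet replicate 2 is. Xcr1, its receptor on cross-presenting dendritic cells, was at 47.6 and 37.8 on the high-fat diet and 68.9 and 37.9 on the casein diet.

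The interferon-induced ligands Cxcl9, Cxcl10 and Cxcl11 attract activated T and NK cells through Cxcr3, and each was highest in casein diet replicate 1. Cxcl9 was at 2090.1 and 1853 on the high-fat diet and 5368 and 2056 on the casein diet, and Cxcl10 was at 488 and 402 on the high-fat diet and 1108 and 476 on the casein diet. In both, casein diet replicate 2 lay within the range of the high-fat diet arrays. Cxcl11 was at 77.8 and 69.1 on the high-fat diet and 188 and 94.0 on the casein diet, without overlap. The log2 differences of Cxcl9, Cxcl10 and Cxcl11 were -0.76 (SE 0.52), -0.71 (SE 0.47) and -0.86 (SE 0.38), and -0.06, -0.10 and -0.36 once casein diet replicate 1 was left out. With casein diet replicate 2 left out they were -1.45, -1.32 and -1.36. Cxcr3 was at 175 and 227 on the high-fat diet and 306 and 216 on the casein diet (-0.37, SE 0.25), with -0.18 without high-fat diet replicate 1, -0.55 without high-fat diet replicate 2, and -0.12 and -0.62 once casein diet replicates 1 and 2 were left out in turn.

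Of the 19 tested genes of the interferon response list, 14 were also highest in casein diet replicate 1 and 5 were not. Irf7, Ifit1, Ifit3 and Oas2, which take part in antiviral responses, were highest in high-fat diet replicate 1, and the transcription factor gene Irf9 in casein diet replicate 2. Of these 19 genes, 0 passed limma's test after adjustment and 2 had an unadjusted p under 0.05, against 4.85% of all tested genes. Of the 19, 14 were below and 5 above the casein diet, and 7 were lower and 2 higher without overlap, against 19.5% and 16.7% of all tested genes. Their median log2 difference was -0.29, against -0.01 over all tested genes. Ifng, the gene of interferon gamma, was at 48.6 and 32.9 on the high-fat diet and 224 and 53.9 on the casein diet. Ido1, an interferon-induced enzyme that degrades tryptophan, was at 21.1 and 54.8 on the high-fat diet and 367 and 219.9 on the casein diet, high in both casein diet arrays. Cd8a, the coreceptor gene of cytotoxic T cells, was at 54.4 and 46.3 on the high-fat diet and 196 and 85.5 on the casein diet. Cxcl9, Cxcl10, Cxcl11, Xcl1 and Ifng were thus highest in the array in which gastric mucosa markers were also highest. The summed intensity of 7 intestinal epithelium markers was 172 and 211 on the high-fat diet and 3663 and 294 on the casein diet, so it too was highest there. The part of these tissues was not tested. The gastric mucosa markers were also higher in casein diet replicate 2 than in either high-fat diet array. For the genes lower on the high-fat diet, among them Ccr7, Cxcl13, Ccl17 and Ido1, gastric tissue cannot be told apart from diet.

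Cxcr6, the receptor of tissue-resident T and NK cells, was at 178 and 212 on the high-fat diet and 365 and 235 on the casein diet. The diets did not overlap, and the log2 difference was -0.59 (SE 0.26), or -0.27 once casein diet replicate 1 was left out and -0.91 once casein diet replicate 2 was. A second probe set of Cxcr6 overlapped between diets, at 148 and 164 on the high-fat diet and 271 and 155 on the casein diet (-0.40). Its ligand Cxcl16, a membrane-bound chemokine of macrophages, was at 696 and 578 on the high-fat diet and 769 and 665 on the casein diet, with overlap (-0.17, SE 0.15). The pair thus pointed the same way in value. In the other membrane-bound pair the values of the brightest probe sets opposed each other, narrowly without overlap. Cx3cl1, fractalkine, was at 135 and 138 on the high-fat diet and 154 and 145 on the casein diet (-0.13, SE 0.09), and a second probe set overlapped between diets (-0.03). Cx3cr1, its receptor on monocytes and resident macrophages, was at 537 and 444 on the high-fat diet and 386 and 442 on the casein diet (0.24, SE 0.15, 0.10 without high-fat diet replicate 1, 0.38 without high-fat diet replicate 2 and 0.14 without casein diet replicate 1). Neither difference reached 0.4 log2.

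**Figure D3:**
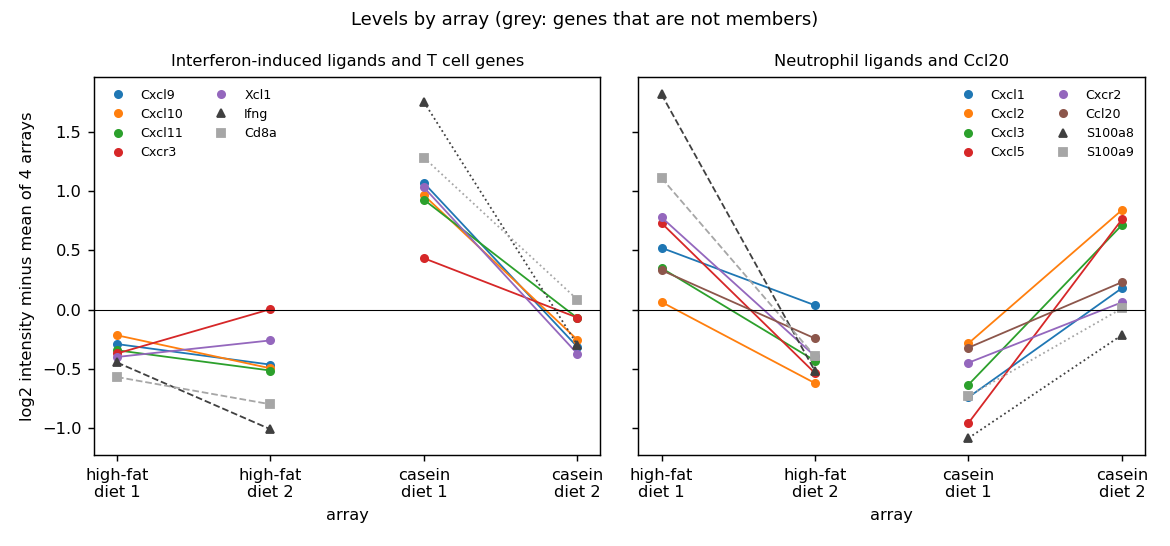
Log2 intensity of each array minus the mean of the 4 arrays, with lines joining arrays of a diet and genes that are not chemokine or receptor genes in grey. On the left Cxcl9, Cxcl10, Cxcl11 and Xcl1 peak in casein diet replicate 1 with Ifng and Cd8a, and on the right the neutrophil ligands and Ccl20 are mostly higher in high-fat diet replicate 1 and casein diet replicate 2.

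The neutrophil ligands, which act through Cxcr2, overlapped between diets and varied widely within them. Cxcl5 was at 469 and 195 on the high-fat diet and 145 and 478 on the casein diet. Cxcl3 was at 80.9 and 47.0 on the high-fat diet and 40.9 and 104 on the casein diet. In both genes, high-fat diet replicate 1 and casein diet replicate 2 were the high arrays. Cxcl1 was at 166 and 119 on the high-fat diet and 69.2 and 131 on the casein diet, and Cxcl2 was at 355 and 221 on the high-fat diet and 279 and 608 on the casein diet. The mucosal ligand Ccl20, which attracts Ccr6-bearing lymphocytes and dendritic cells, had the same high arrays, at 53.6 and 35.97 on the high-fat diet and 34.1 and 49.995 on the casein diet. The log2 differences of these 5 ligands lay between -0.56 and 0.56. The highest, that of Cxcl1, was 0.32 without high-fat diet replicate 1, and 0.10 and 1.02 once casein diet replicates 1 and 2 were left out in turn. For the 5 ligands the 95% intervals all included 0 (-2.05 to 2.45 for Cxcl5).

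Cxcr2, the receptor gene of neutrophils, was at 138 and 61.3 on the high-fat diet and 59.0 and 84.0 on the casein diet. The neutrophil genes S100a8 and S100a9 ranked the arrays in the same order, with S100a8 at 3477 and 688 on the high-fat diet and 465 and 849 on the casein diet. Over the 7 neutrophil markers on the array (9 listed, 5 tested, 4 above the casein diet), the summed intensity was 9139.7 and 5715 on the high-fat diet and 4982 and 11032 on the casein diet. Ltf was the largest term of this sum on each array, at 3940 and 4300 on the high-fat diet and 3833 and 9294 on the casein diet. It was the only tested marker below the casein diet (-0.54, SE 0.48), with overlap, so the sum mostly follows Ltf in casein diet replicate 2. Il1b, a cytokine gene that induces these ligands, was at 419 and 215 on the high-fat diet and 216 and 309 on the casein diet. The part of neutrophils in the ligand values was not tested. Cxcl15, a lung and epithelial chemokine gene of the mouse, followed another order and was high only in high-fat diet replicate 2, at 136 against 38.2 in the other array of that diet and 35.1 and 41.8 on the casein diet.

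The monocyte ligands Ccl2, Ccl7 and Ccl12 and their receptor gene Ccr2 overlapped between diets in their brightest probe sets. Ccl2 was at 225 and 236 on the high-fat diet and 339 and 226 on the casein diet, and Ccl12, a monocyte chemokine of the mouse, at 393 and 320.5 on the high-fat diet and 542 and 354 on the casein diet. Only casein diet replicate 1 exceeded the high-fat diet arrays in both. The log2 differences were -0.26 (95% interval -0.93 to 0.40) for Ccl2, -0.03 (-0.75 to 0.69) for Ccl7, -0.30 (-1.06 to 0.46) for Ccl12 and -0.17 (-0.70 to 0.36) for Ccr2. Ccr2 was at 875 and 725 on the high-fat diet and 1013 and 791 on the casein diet. Its 3 dimmer probe sets, all above the filter, were lower on the high-fat diet without overlap (-0.26, -0.35 and -0.15). The intervals leave room for differences of either sign.

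Of the eotaxins, which attract eosinophils through Ccr3, Ccl11 was at 51.7 and 76.0 on the high-fat diet and 133 and 86.7 on the casein diet (-0.78, SE 0.32, with -0.50 without high-fat diet replicate 1 and -0.47 without casein diet replicate 1). Ccl24 was close to the filter, at 38.8 and 37.4 on the high-fat diet and 42.4 and 44.1 on the casein diet (-0.18, SE 0.09). In both genes the diets did not overlap, while Ccr3 was far under the filter at 5.68 to 6.82. The eosinophil genes Epx and Prg2 were also under the filter on average. Among mucosal chemokines, Ccl28, an epithelial ligand of Ccr10, was high only in casein diet replicate 2, at 887, against 295 in casein diet replicate 1 and 320.3 and 400.3 on the high-fat diet. Ccl25, the thymic and intestinal ligand of Ccr9, was under the filter at 31.6 and 35.2 on the high-fat diet and 24.3 and 29.3 on the casein diet. Ccr9 itself was at 74.5 and 82.6 on the high-fat diet and 87.4 and 86.8 on the casein diet, and Ccr6 overlapped between diets (-0.08, SE 0.17). Ccr10 was at 27.1 to 29.5.

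**Figure D4:**
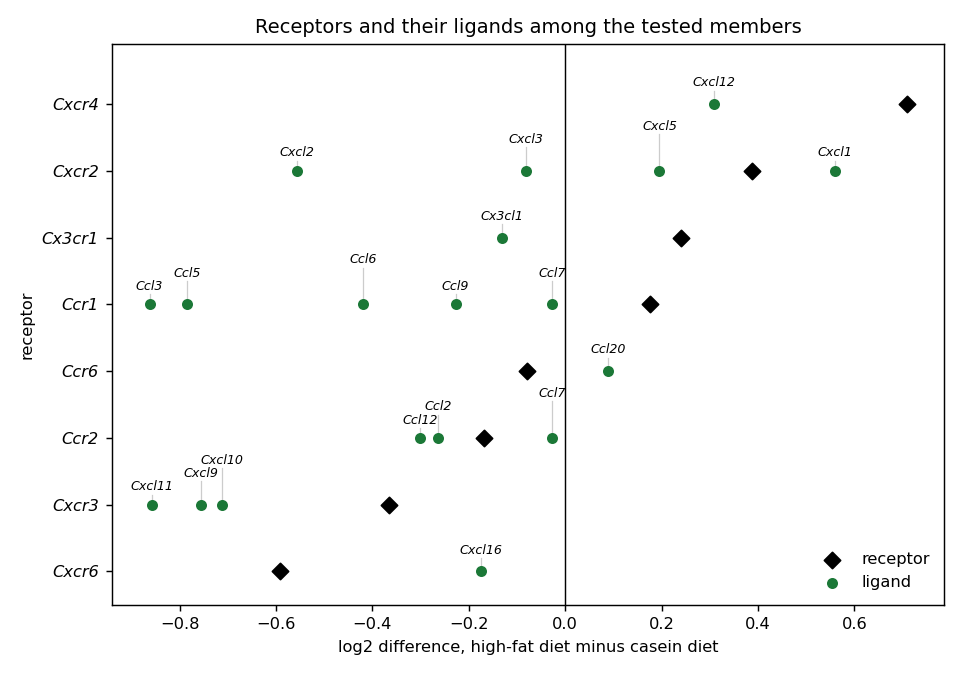
Log2 difference, high-fat diet minus casein diet, of each tested receptor gene that has a tested ligand (black diamonds) and of its tested ligand genes (green points), with a row per receptor. Cxcr4 and Cxcl12 lie right of 0, Cxcr3 and Cxcr6 lie left of 0 with their ligands, and Ccr1 lies right of 0 with its ligands left of it.

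Across the 19 ligand and receptor pairs with both genes tested, 7 had both values below the casein diet, 3 had both above it and 9 had opposite signs. The pairs share genes, since Ccr1 enters 5 of them and Cxcr2 enters 4. Without overlap in both genes there was 1 pair above (Cxcl12 and Cxcr4), 0 below and 1 opposed (Cx3cl1 and Cx3cr1). Taken singly, 16.7% of all tested genes were higher and 19.5% lower without overlap. How many pairs of other genes would be so was not computed, so these counts are description only. A further 12 pairs held a gene under the filter.

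Genes that act with the chemokines showed no common direction in the receptor signalling list. Of 26 tested signalling genes, 0 passed limma's test after adjustment and 3 had an unadjusted p under 0.05, against 4.85% of all tested genes. Of these 26, 12 were above and 14 below the casein diet, and the median log2 difference was -0.02. Regulators that switch off G protein signalling lay at both ends of the list. Rgs1, which damps chemokine responses in lymphocytes, was at 192 and 198 on the high-fat diet and 333 and 339.9 on the casein diet (-0.79, SE 0.09, limma unadjusted p = 0.00124). Rgs2, of the same family, was at 2922 and 2713 on the high-fat diet and 1309.8 and 2111 on the casein diet (0.76, SE 0.27), the highest difference of the list. Rgs18, a regulator of platelets and myeloid cells, differed by -0.72 (SE 0.15), and the G protein subunit gene Gng2 by 0.34 (SE 0.11). Atypical receptors and chemokine-like genes were divided evenly, 5 above and 5 below, with 0 passing limma's test and 0 under an unadjusted p of 0.05. Ackr4, a scavenger of Ccr7 ligands, was at 39.9 and 43.1 on the high-fat diet and 30.5 and 35.2 on the casein diet (0.34, SE 0.12).

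Cytokines and NF-kB regulators that induce chemokines had 9 above and 11 below of 20 tested genes, with 0 passing limma's test, 0 under an unadjusted p of 0.05 and a median of -0.04. Il1rn, the antagonist of the interleukin 1 receptor, differed by 0.54 (SE 0.21), and Ltb, a lymphotoxin subunit gene that supports lymphoid chemokines, by -0.50 (SE 0.20). Ltb thus pointed the same way as Cxcl13 and Ccr7. Genes that cleave or hold chemokines lay above the casein diet in 11 of 13 cases (median 0.19), against 48.6% of all tested genes. Of the 13, 0 passed limma's test and 3 lay under an unadjusted p of 0.05, against 4.85% of all tested genes. The matrix proteases Mmp13, Mmp8 and Mmp3, which can cut chemokines, had the largest log2 differences of the list. These were 3.66 (SE 0.40), 2.31 (SE 0.36) and 1.95 (SE 0.33). Mmp8 was at 147 and 78.1 on the high-fat diet and 19.9 and 23.4 on the casein diet. Dpp4, which trims the start of several chemokines, was at 129 and 296 on the high-fat diet and 296 and 315 on the casein diet.

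**Figure D5:**
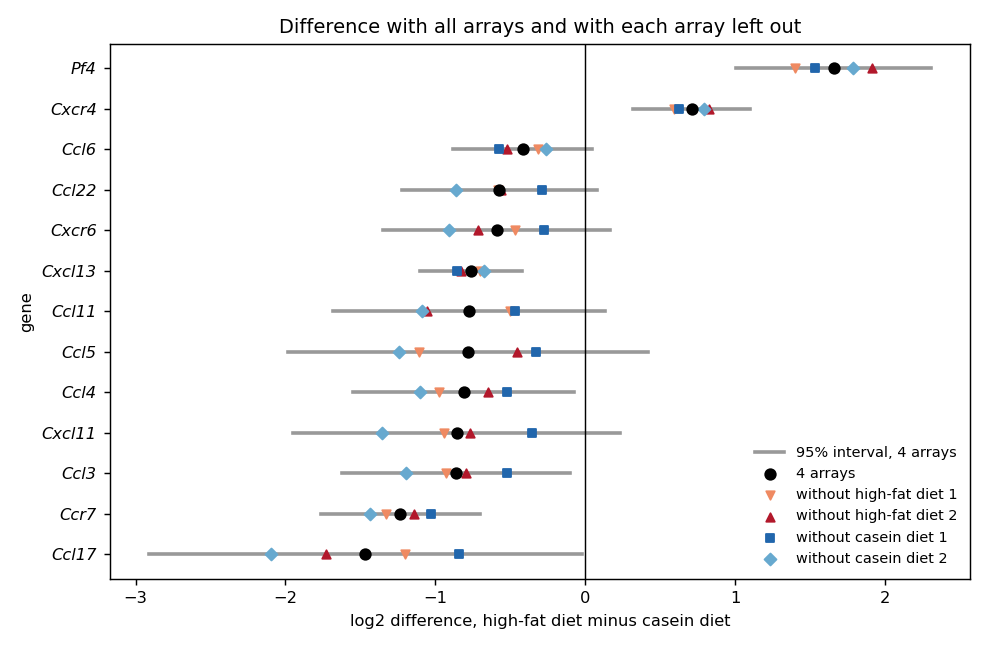
Log2 difference, high-fat diet minus casein diet, of the 13 genes reported in full, with the 95% interval of the fit on 4 arrays (grey bars) and the values with each array left out (coloured points). Cxcl13 and Cxcr4 move least on the log2 scale. Ccl5, Cxcl11 and Ccl17 move most, toward 0 without casein diet replicate 1 and as far from it without casein diet replicate 2.

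Leaving out arrays separated the 13 genes by how evenly the arrays bore them. None of the 13 changed sign, as must be so for genes whose diets do not overlap, and 9 moved by over 1.5 times. The 4 that did not were Pf4, Cxcr4, Cxcl13 and Ccr7. Among all 40 genes, 16 changed sign when an array was left out. Of the 40 genes, 13 had more than 1 probe set at or above the filter, and in all 13 these probe sets had the same sign.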

How the data were processed

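Lesion RNA was hybridised to Affymetrix 3′ expression arrays, per the labels' protocols. The deposited values are intensity values of probe sets on a linear scale. GCOS and RMA are named in the submitters' processing notes, with no version or role, and how RMA values became linear is not stated. Medians were 55.1 to 56.5 on the 4 arrays, so a change common to most genes cannot be seen.

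Of 45101 probe sets, 34945 had 1 symbol in the platform annotation. The brightest was kept for each gene, log2 was taken with no pseudocount, and genes with a mean of at least 34.7 (the 40th percentile) were tested. The fit used lmFit and eBayes of limma 3.58.1 in R 4.3.3, two-sided, adjusted over 12847 genes (3.73 total degrees of freedom). It was tested on simulated data. With 2 arrays a diet no exact test of a single value can reach 0.05. The genes and lists were chosen with earlier results of these data known. Genes were reported in full where the diets did not overlap and the difference reached 0.4 log2 or the unadjusted p was under 0.05. Marker lists for mesothelium (3 of 4 tested genes below the casein diet), intestinal epithelium (4 of 4), exocrine pancreas (2 of 3), adipocytes (0 of 3), lymphoid tissue stroma (1 of 2), and eosinophils and mast cells (2 of 3) were also read. No scan date or other batch was on hand. Figures were drawn with matplotlib 3.10.9.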

Additional observations from a re-analysis of the deposited data

How the results depend on the processing

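No chemokine or receptor gene passed in any alternative run, which were the replicate block, quantile normalisation, median centring, a pseudocount of 16, no filter, a 60th percentile filter, the mean of all probe sets, a trended robust prior, an adjusted p threshold of 0.10 and each array left out. The replicate number used as a block called 0 of 12847 genes (smallest adjusted p = 0.910, 564 genes at an unadjusted p under 0.05) and changed no other call. Same-numbered arrays did not deviate together (correlation -0.024 across genes). With 2 arrays for each diet, this correlation cannot show whether the numbers pair the samples. With each array left out, 0 to 24 of all genes passed, and 24 to 37 of the 40 genes did not overlap between diets (5 to 13 higher and 19 to 24 lower), since fewer arrays overlap less. Without high-fat diet replicate 1, 28 of the 40 genes did not overlap, against 64.2% of all tested genes. With all 4 arrays that share was 36.1%. Without high-fat diet replicate 1, the rise in the count therefore does not by itself set the 40 genes apart. The counts with another array left out, and the higher and lower counts, are given without the share of all tested genes. They are description only and do not set the 40 genes apart either. With each array left out, the median log2 difference ranged from -0.31 to -0.12 for all 40 genes. It ranged from -0.44 to -0.20 for ligands and from -0.15 to -0.024 for receptors. Each median was nearest 0 without casein diet replicate 1. The 60th percentile filter gave medians of -0.37 over 33 genes and -0.51 over 25 ligands, and no filter gave 0.017 over 15 receptors, since other genes enter. Genes whose sign changed when an array was left out ranged from -0.56 to 0.029 (Ccl2), -0.34 to 0.28 (Ccl7), -0.56 to 0.10 (Ccl9), -0.61 to 0.0060 (Ccl12), -0.20 to 0.38 (Ccl20), -1.31 to 0.28 (Ccl28), -1.12 to 0.0059 (Cxcl2), -0.76 to 0.59 (Cxcl3), -0.66 to 1.06 (Cxcl5), -0.16 to 0.79 (Cxcl14), -0.0030 to 1.83 (Cxcl15), -1.36 to 0.043 (Xcl1), -0.027 to 0.38 (Ccr1), -0.35 to 0.010 (Ccr2), -0.26 to 0.11 (Ccr6) and -0.20 to 0.97 (Cxcr2). The cause was not tested beyond which array was left out. The arrays carry no detection calls, so values under the filter have no measured background.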
